A study of Rattus norvegicus with 8 samples.

Results

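A set of 10 genes that liver X receptors are known to switch on, or that carry cholesterol out of the cell and onto lipoproteins, was followed in a rat thyroid cell line. They were the exporters Abca1 and Abcg1, the apolipoproteins Apoc1, Apoc2, Apoc4 and Apoe, the ubiquitin ligase Mylip, the transfer protein Pltp, the acyltransferase Lpcat3 and the receptor Nr1h3. All probe sets with one of these symbols were taken, which gave 17 probe sets for 10 genes, of 14217 genes with a symbol on the array. A probe set is a group of short oligonucleotides read together as a measure of 1 transcript. Of the 17, 14 probe sets of 9 genes were bright enough to be tested, and both Apoe probe sets and 1 of 3 Abcg1 probe sets were not.

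The cells were sub-clone SB5 of FRTL-5, a rat thyroid follicular line that needs thyrotropin (TSH) to grow. They stably carried a human TSH receptor that was wild type or L629F, an amino acid change making the receptor active without hormone, and all of them were kept with 5 mU/ml bovine TSH. Each receptor line received 1 mM sodium iodide or 1 mM sodium chloride, the latter as a control of equal salt strength. The 8 arrays thus fell into 4 groups of 2: wild type with chloride, wild type with iodide, L629F with chloride and L629F with iodide. The labels give 1 line for each receptor, no treatment time and no statement that replicates were separate cultures. The p-values therefore speak only of the spread among these 8 arrays, possibly technical, and a difference between receptors cannot be told apart from a difference between 2 cell lines.

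Liver X receptors are nuclear receptors bound by oxysterols, the oxidised forms of cholesterol. Together with a retinoid X receptor they sit on direct repeats of a hexamer and raise the transcription of genes that remove cholesterol when a cell holds much of it. Abca1 and Abcg1 pump sterol and phospholipid to acceptors outside the cell, apolipoproteins form and steer the particles that carry it, and Mylip marks the LDL receptor for breakdown so that less enters. Pltp moves phospholipids between particles, and Lpcat3 puts polyunsaturated chains into membrane phospholipids. Thyroid follicular cells are better known for iodide uptake and thyroglobulin than for lipoprotein traffic.

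All arrays shared 1 overall scale as deposited (mean of 500.2 after trimming 2% at each end). Their 25th percentile ran from 29.3 to 31.6 on wild type and from 40.9 to 43.2 on L629F arrays, so dim signals were higher in the L629F line. Of 10 thyroid follicular markers, 9 had a probe set and all 9 were above the level kept for testing, with Tg, the thyroglobulin gene, at a mean signal of 13792. Macrophage and leucocyte markers, which matter because macrophages are rich in these transporters, had at most a mean signal of 156 (Cd14). Of 11 with a probe set, 5 were above the level kept, namely Cd14, Cd3e, Fcer1g, Lyz2 and Csf1r. Ptprc, Cd68, Laptm5, Tyrobp, Adgre1 and Itgam were below it. The summed signal of 11 such markers was 619 to 637 and 562 to 867 in wild type cells without and with iodide, and 735 to 743 and 646 to 729 in L629F cells. As a sign of RNA quality, the ratio of the 3′ to the 5′ GAPDH probe set, which rises with degradation, was 2.32 ± 0.716 with iodide against 1.62 ± 0.397 with chloride (SD, n = 4 in both; exact permutation test, two-sided, p = 0.171). The same ratio for beta-actin ran from 2.23 to 9.15. Wild type chloride replicate 1 had the lowest of both ratios (GAPDH 1.22, beta-actin 2.23) and wild type iodide replicate 2 the highest (3.13 and 9.15). In RNA extracted from whole cultures, fewer cells of a kind and less RNA per cell cannot be told apart.

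Iodide was accompanied by lower signals of the cholesterol exporters, of Apoc1 and Apoc2 and of Mylip. Averaged over both receptor lines, 8 of the 14 tested probe sets, of 5 genes, were lower and none was higher (limma, adjusted p under 0.05 over 18625 probe sets). Over all tested probe sets 0.644% were called lower and 0.209% higher, 120 and 39 probe sets, or 97 and 77 when each array's overall median was subtracted. The median change of the 14 was -0.77 on the log2 scale against -0.003 for all probe sets, and 13 of 14 were negative where 50.6% of all were. In each line, iodide arrays lay below chloride arrays without overlap for 11 of the 14, a pattern that 5.81% of all probe sets showed. The members were chosen with earlier results of these data known, so these shares describe the set and are not independent support for it. All changes here are differences of log2(signal + 35.3), a scale that understates the change of dim probe sets.

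With each array left out in turn, 13 of the 14 were negative in each of the 8 fits and their median lay between -0.81 and -0.65, but fewer passed in most of them. Calls over all tested probe sets fell as well in most of the 8 fits, so the loss of calls was not particular to the members. When wild type chloride replicate 1 or 2 was left out, 2 or 4 of the 14 passed. Leaving out L629F chloride replicate 1 or 2 gave 5 or 3, and leaving out L629F iodide replicate 1 gave 4. None passed without the intensity trend in the variance, where 2 of all probe sets passed, and 5 passed with no filter on dim probe sets. With the GAPDH ratio as a covariate 6 passed, of which 5 were among the 8 called without it. Abca1 1394490_at, Apoc1 and Mylip lost the call and Lpcat3 1393915_at gained it (-0.51, adjusted p = 0.0394).

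**Figure D1:**
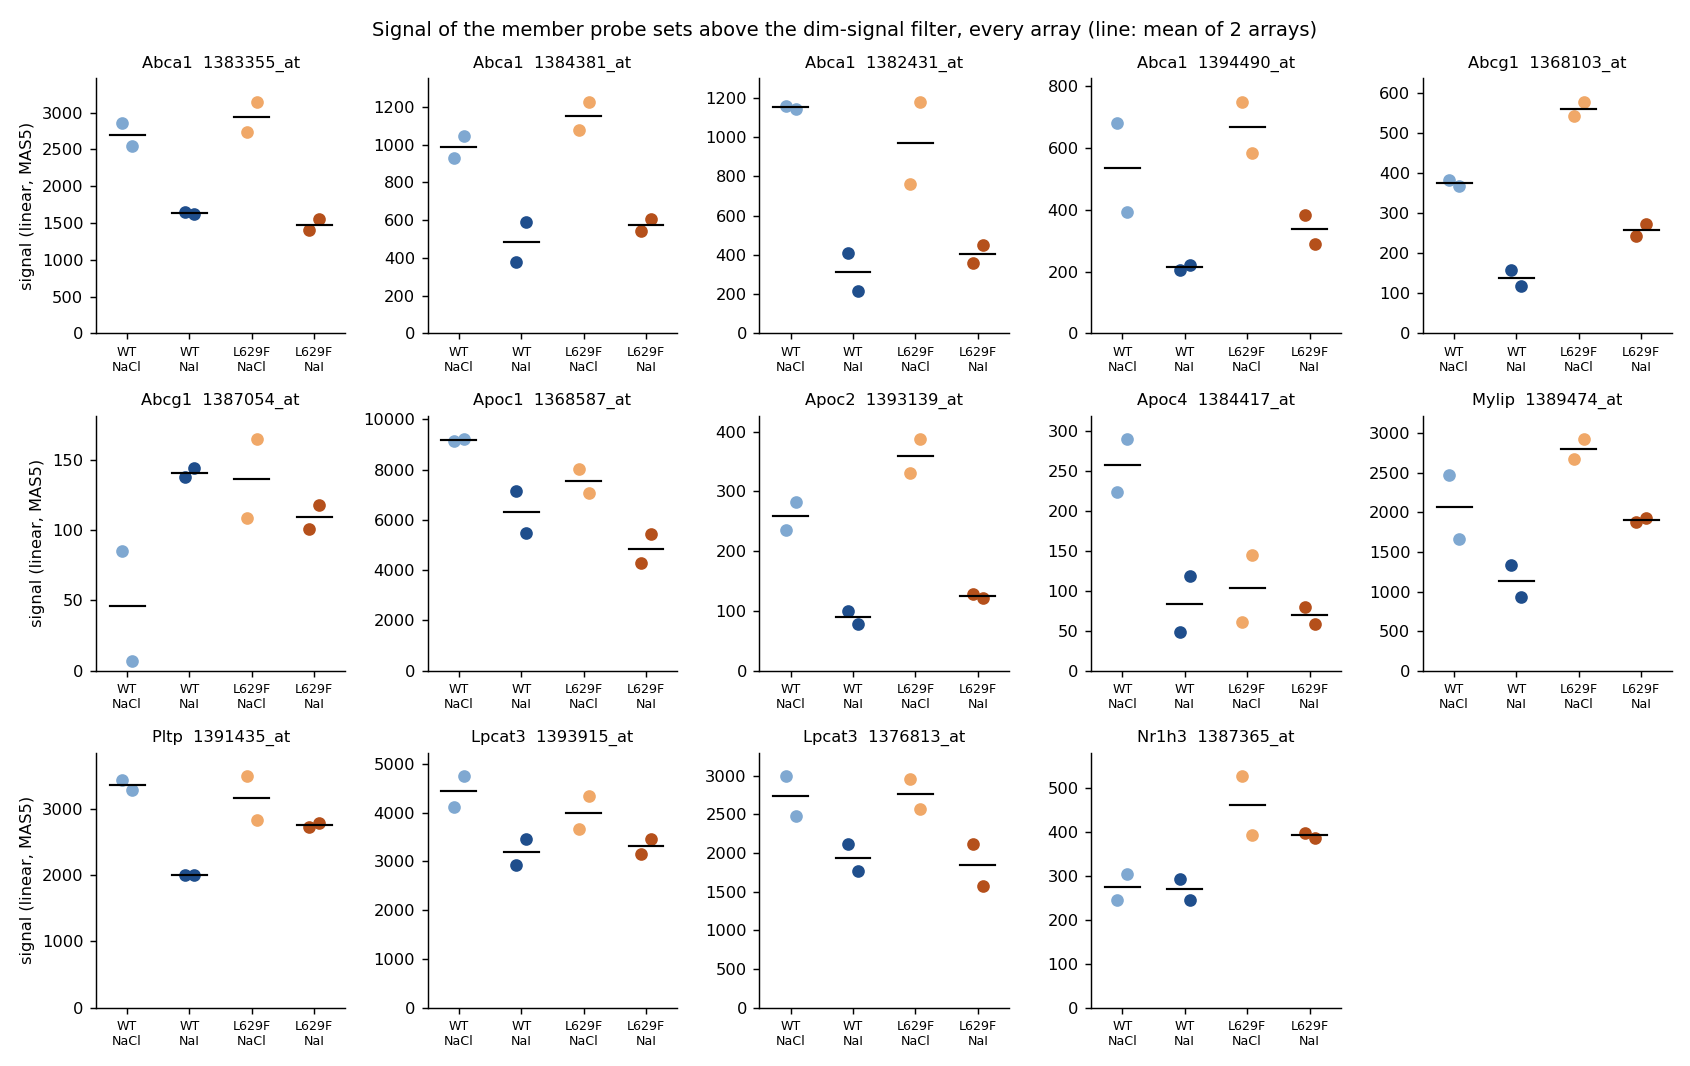
Signal of the 14 member probe sets above the dim-signal filter on each of the 8 arrays (linear scale from 0, 1 panel per probe set, points are arrays, lines are means of 2 arrays, WT and L629F are the receptors, NaCl and NaI the salts). In 11 panels both iodide arrays of each line sit below both chloride arrays of that line, while Abcg1 1387054_at, Apoc4 and Nr1h3 do not show this.

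Abca1 is the transporter that loads cholesterol and phospholipid onto lipid-poor apolipoprotein A-I. Its promoter is shown because this gene fell on every probe set and because a direct repeat bound by liver X receptors is known near its start. The sequence is RefSeq's, from 250 bases before to 50 after the start (GRCr8, chr5:72596424-72596723, minus strand, read in the direction of the gene), with the best match to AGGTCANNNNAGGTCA on either strand in capitals.
Abca1: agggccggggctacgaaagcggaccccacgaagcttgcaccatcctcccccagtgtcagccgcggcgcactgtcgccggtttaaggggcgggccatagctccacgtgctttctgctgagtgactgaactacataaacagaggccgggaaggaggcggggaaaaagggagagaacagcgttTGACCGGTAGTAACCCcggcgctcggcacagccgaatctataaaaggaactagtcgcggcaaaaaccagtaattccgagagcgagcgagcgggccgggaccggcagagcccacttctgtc
Read on the opposite strand, the capitals are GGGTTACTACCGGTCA. They differ from the motif at 3 of its 12 fixed letters, and the match begins 70 bases before the start. A match at least this close was found in 21.9% of 33469 RefSeq promoter windows of 300 bases. The window also holds CACGTG, the core of an E-box, as do 6.42% of the windows. These are matches of letters and not measured binding.

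Abca1 had 4 probe sets, and each was lower with iodide in both lines. Signals of 1383355_at in wild type cells were 2855 and 2541 with chloride and 1655 and 1628 with iodide. In L629F cells they were 2734 and 3148 without and 1400.2 and 1549 with iodide. The groups did not overlap in either line, and the average change was -0.84 ± 0.10 (SE, adjusted p = 0.00274).

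On 1384381_at the wild type signals went from 927 and 1045 to 379 and 588, while the L629F signals from 1078 and 1227 to 540.1 and 604, again without overlap (-0.99 ± 0.15, adjusted p = 0.00866). The strongest change was that of 1382431_at, from 1159 and 1142 to 412 and 216 in wild type cells. The L629F arrays of this probe set went from 763 and 1180 to 360 and 451, and its average change was -1.50 ± 0.19 (adjusted p = 0.00302), the fourth largest fall of all 18625 probe sets. The dimmest, 1394490_at, went from 679 and 392 to 204 and 223 and from 749 and 584 to 384 and 288 (-1.04 ± 0.19, adjusted p = 0.0227), and it lost the call with the GAPDH ratio as a covariate (-0.94, adjusted p = 0.0739). Mean signals with iodide were thus between 27.3% and 60.8% of chloride in wild type and between 41.7% and 50.5% in L629F cells.

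How the 4 probe sets stand in the transcript was not analysed here, so they are repeat readings of 1 gene and not independent evidence. Of 188 genes with at least 4 tested probe sets, 7 had any probe set past the threshold for the average, and Abca1 was the 1 gene that had all of them. When 1 array was left out, 1383355_at and 1382431_at passed in 8 of 8 fits (adjusted p up to 0.0377 and 0.0381), 1384381_at in 4 (up to 0.0668) and 1394490_at in 3 (up to 0.148). Within wild type cells 1382431_at was the Abca1 probe set that passed (-1.82 ± 0.27, adjusted p = 0.0146). It lost the call without wild type chloride replicate 1 or 2 or wild type iodide replicate 2 (adjusted p = 0.264, 0.162 and 0.0977). Within L629F cells none of the 4 passed, the nearest being 1383355_at (-0.98 ± 0.15, adjusted p = 0.0676).

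**Figure D2:**
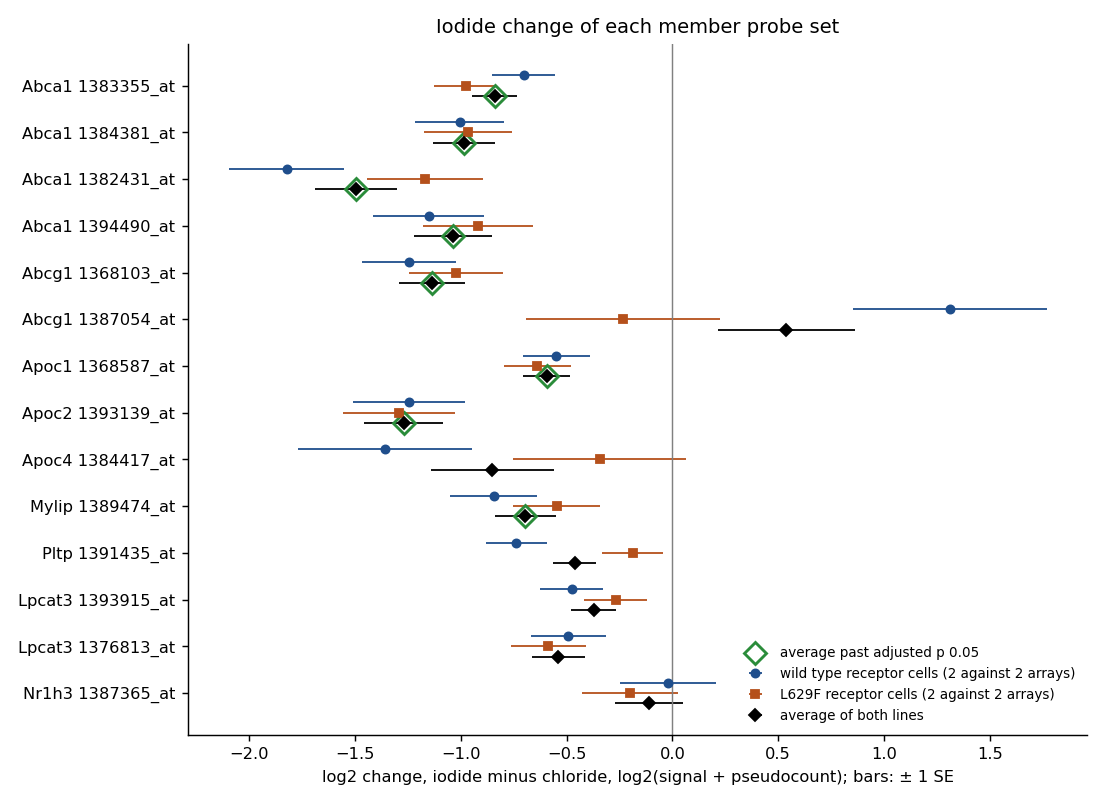
Log2 change with iodide against chloride for each tested member probe set, in wild type cells (circles), in L629F cells (squares) and averaged over both (diamonds), with bars of 1 SE. Green outlines mark the 8 averages past an adjusted p of 0.05, and the second Abcg1 probe set is alone to the right of 0 for the average.

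Abcg1 is a half-transporter that moves cholesterol to particles already holding lipid. The average changes of its 3 probe sets did not all have the same sign. The brightest, 1368103_at, is tied to the RefSeq mRNA, and the others are tied to expressed sequence tags, per the platform annotation. Signals of 1368103_at were 384 and 369 in wild type cells with chloride and 159 and 119 with iodide. In L629F cells they were 543 and 579 without and 244 and 273 with iodide. Both lines separated fully, with an average change of -1.14 ± 0.16 (adjusted p = 0.00497), and the change within wild type cells also passed (-1.25 ± 0.22, adjusted p = 0.0413). The average passed in 7 of the 8 leave-one-out fits (adjusted p = 0.0506 without wild type chloride replicate 1), whereas the wild type call was lost in all 8 (adjusted p from 0.0595 without wild type iodide replicate 1 to 0.445 without wild type chloride replicate 1).

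The second probe set, 1387054_at, in wild type cells read 85.2 and 6.61 with chloride and 138 and 144 with iodide. On the L629F arrays it read 108 and 165 without and 101 and 118 with iodide. Both iodide arrays read higher in wild type cells, but that change did not pass (1.31 ± 0.46, adjusted p = 0.321), and the L629F arrays overlapped. Its average change of 0.54 ± 0.32 did not pass (adjusted p = 0.554). The value of 6.61 came from wild type chloride replicate 2, and without that array the average change was 0.16 and the wild type change 0.55 (adjusted p = 0.908 and 0.903). The third probe set, 1373995_at, gave 8.14 to 59.4 on the 8 arrays, under the level kept for testing (69.9). Fitted with no filter, its average change was -0.45 ± 0.25 (adjusted p = 0.632).

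Since signals of different probe sets cannot be set against each other, the ratio of the first to the second was followed within each array. The log2 ratio in wild type cells was 1.80 and 3.27 with chloride, and 0.17 and -0.21 with iodide. The L629F arrays gave 2.01 and 1.62 for chloride, and 1.04 and 1.01 for iodide. Every iodide array had a lower ratio than every chloride array of either line. The mean change was -1.67, from -2.56 in wild type and -0.79 in L629F cells, with an exact two-sided permutation p of 0.0556 when salt labels were permuted within each line (36 arrangements), the smallest p this design allows. Since no arrangement could give a p under 0.05, this test could not decide whether the 2 probe sets changed unequally. The mean change was -1.31 without wild type chloride replicate 2, and -2.09 and -1.12 with a pseudocount at the 10th and 50th percentile of the signals. The second probe set had a mean of 45.9 in wild type cells with chloride, under the level kept for testing. When the tested probe sets of a gene were averaged, the change of Abcg1 was -0.30 (adjusted p = 0.556), and it was 0.03 within wild type cells (adjusted p = 0.984).

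**Figure D3:**
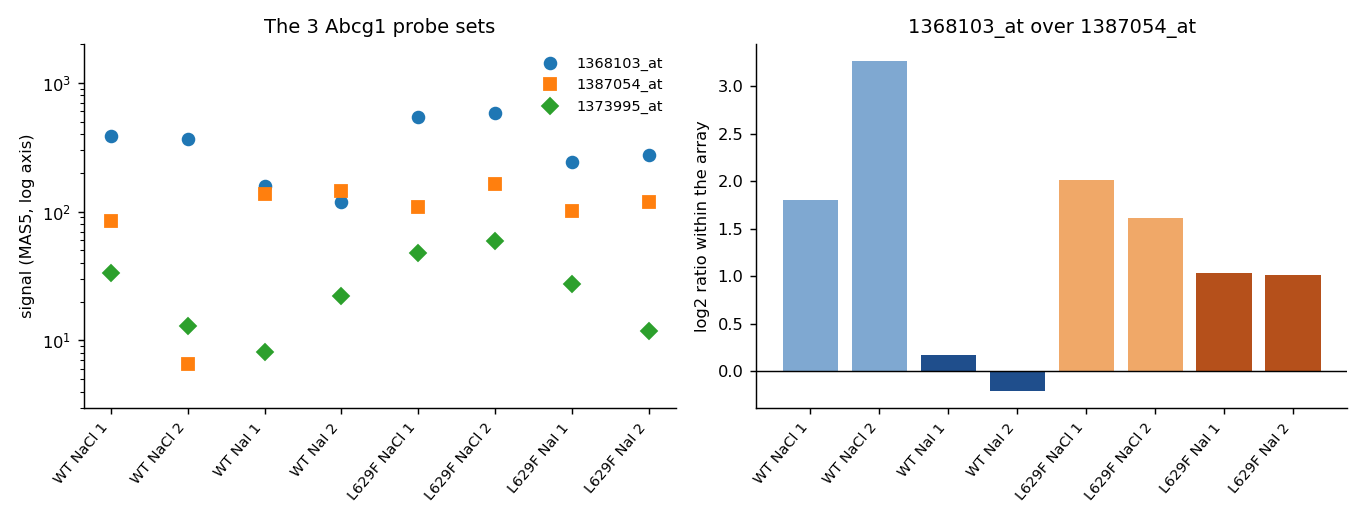
Signals of the 3 Abcg1 probe sets on each array (left, log axis) and the log2 ratio of 1368103_at over 1387054_at within each array (right, bars from 0, coloured by group). The ratio is 1.62 to 3.27 on chloride arrays and -0.21 to 1.04 on iodide arrays, and the low point of 1387054_at is wild type chloride replicate 2 at 6.61.

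Apoc2, Apoc4, Apoc1 and Apoe lie side by side on rat chromosome 1 in that order in the RefSeq table, and in mammals the cluster is known to respond to liver X receptors through distant enhancers. Apoc2, the activator of lipoprotein lipase, read 236 and 281 in wild type cells with chloride and 100.0 and 78.0 with iodide. In L629F cells it read 331 and 388 without and 129 and 122 with iodide. Iodide means were 34.4% and 34.9% of chloride in the 2 lines, and the average change was -1.27 ± 0.19 (adjusted p = 0.00774), and 5 of the 8 leave-one-out fits passed it (largest adjusted p 0.0648, without wild type chloride replicate 2).

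Apoc1, a small apolipoprotein that slows lipase action and lipoprotein uptake, went from 9137 and 9229 to 7149 and 5487 in wild type cells. The L629F arrays went from 8009 and 7073 to 4269 and 5449. The arrays separated in both lines, with an average change of -0.59 ± 0.11 (adjusted p = 0.0292). The call held in 2 of the 8 leave-one-out fits (largest adjusted p 0.163, without wild type chloride replicate 1), and with the GAPDH ratio as a covariate its change was -0.46 (adjusted p = 0.0827).

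Apoc4, a minor apolipoprotein of triglyceride-rich particles, read 224 and 291 in wild type cells with chloride, 48.4 and 118 in wild type cells with iodide, 60.8 and 145 in L629F cells with chloride and 79.8 and 58.3 in L629F cells with iodide. The wild type chloride arrays stood above the other 6, whose values lay on both sides of the level kept for testing. Its average change of -0.85 ± 0.29 did not pass (adjusted p = 0.222). Apoe, the ligand through which the LDL receptor takes up remnants, had 2 probe sets that read 7.13 to 130.2 and 3.67 to 122. Both scattered within groups, for example 122 and 3.67 on the L629F iodide arrays for 1371288_at. They were not tested with the other members, and fitted with no filter their average changes were -0.10 ± 0.37 and 0.62 ± 0.40 (adjusted p = 0.966 and 0.698).

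The promoter of Apoc2 is shown beside that of Abca1 because it had the next largest fall among the called genes after Abca1 while its best motif match is a common one (GRCr8, chr1:88462316-88462615, minus strand, same window, best match in capitals).
Apoc2: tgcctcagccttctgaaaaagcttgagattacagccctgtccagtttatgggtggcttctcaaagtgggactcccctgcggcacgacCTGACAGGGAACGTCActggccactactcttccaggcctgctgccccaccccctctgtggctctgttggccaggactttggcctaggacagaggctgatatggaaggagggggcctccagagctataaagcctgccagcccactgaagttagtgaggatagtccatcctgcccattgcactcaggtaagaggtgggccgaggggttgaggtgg
The match differs from the motif at 4 of 12 letters, as close as in 77.6% of all windows, and it begins 163 bases before the start. Of the 10 genes, 9 had a promoter in the table, 12 windows in all. Abca1 was the 1 gene with a match at 3 differing letters. Mylip and 1 of 2 Apoc1 windows had no match under 5, which 99.7% of windows reach. A window without a closer match says nothing of sites elsewhere, and those known for Abcg1 and for the apolipoprotein cluster lie outside the promoter.

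Mylip, also called IDOL, is the ligase that sends the LDL, VLDL and APOER2 receptors to the lysosome. Its signals were 2480.0 and 1670.3 in wild type cells with chloride and 1341 and 932 with iodide. In L629F cells they were 2676 and 2933 without and 1880 and 1932 with iodide. The arrays separated in both lines and the average change was -0.70 ± 0.15 (adjusted p = 0.0455), close to the threshold. The call held in 1 of the 8 leave-one-out fits (largest adjusted p 0.27, without wild type chloride replicate 1), and the change was -0.49 with the GAPDH ratio as a covariate (adjusted p = 0.131).

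Pltp, the phospholipid transfer protein of plasma, had arrays that separated in both lines but an average that missed the threshold (-0.46 ± 0.10, adjusted p = 0.0577). In wild type cells it went from 3434 and 3290 to 2000 and 2005, and in L629F cells from 3498 and 2831 to 2734 and 2783. Iodide means were 59.6% of chloride in wild type and 87.2% in L629F cells. The difference between these changes was 0.55 (95% interval 0.11 to 0.99, unadjusted p = 0.0183), which did not pass over all probe sets (limma, adjusted p = 0.998).

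Lpcat3, the membrane acyltransferase, had 2 probe sets that both separated in each line and did not pass. On 1376813_at signals went from 2995 and 2481 to 2111 and 1760 in wild type and from 2952 and 2574 to 2113 and 1574 in L629F cells (-0.54 ± 0.13, adjusted p = 0.0713). On 1393915_at they went from 4124 and 4756 to 2920 and 3453 and from 3667 and 4342 to 3163 and 3456 (-0.37 ± 0.11, adjusted p = 0.133). Both readings of the gene were thus 66.7% to 82.7% of chloride in mean signal.

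Nr1h3 encodes liver X receptor alpha, the receptor itself, and in some cells is a target of its own product. Its signals were 245 and 304 in wild type cells with chloride and 294 and 246 with iodide. In L629F cells they were 528 and 393 without and 397 and 387 with iodide. The salts overlapped in both lines and the average change was -0.11 ± 0.16 (adjusted p = 0.847), with a 95% interval from -0.46 to 0.24. This interval does not show that the level was equal. It overlaps the 95% intervals of the called Apoc1 (-0.835 to -0.352) and Mylip (-1.009 to -0.382). It lies above those of the other called probe sets, of Abca1 (upper ends from -1.079 to -0.613), Abcg1 1368103_at (-1.475 to -0.796) and Apoc2 (-1.673 to -0.865). No difference between genes was tested.

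The change with iodide was not shown to differ between the receptor lines for any tested member. In the test of the difference 0 of 18625 probe sets passed in limma (0% called, 747 with an unadjusted p under 0.05), and 2 of the 14 had an unadjusted p under 0.05, Pltp and Abcg1 1387054_at. For Apoc2 the difference was -0.05 (95% interval -0.86 to 0.76) and for Abca1 1383355_at -0.27 (-0.73 to 0.18). Within wild type cells 2 of the 14 passed (background 0.183% lower) and within L629F cells 0 of 14 in limma (background 0.0107% lower). An unadjusted p under 0.05 was found in L629F cells for 9 of the 14 and for 1293 of all 18625 probe sets. In L629F cells all 14 were negative, against 50.3% of all probe sets. The median change was -0.79 in wild type and -0.61 in L629F cells.

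Between the receptors no member passed, in chloride, in iodide or averaged over both salts (0 of 14 each in limma, with 5, 6 and 6 at an unadjusted p under 0.05). Of all 18625 tested probe sets, 2279, 2003 and 3371 had an unadjusted p under 0.05 in the same comparisons. All tested probe sets were called at 0.15%, 0.172% and 1.76% for these comparisons, of which the average was added after the data had been seen. It was 213 higher and 114 lower in L629F cells, and 157 and 1191 when each array's overall median was subtracted, which moved the median of all from 0.015 to -0.156. Comparisons of receptors with chloride share their control arrays with the iodide comparisons in wild type cells.

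In 4 members the L629F arrays lay above the wild type arrays under each salt without overlap, which 9.37% of all probe sets showed. These were Abcg1 1368103_at, Apoc2, Mylip and Nr1h3. Averaged over both salts they differed by 0.65 ± 0.16, 0.40 ± 0.19, 0.60 ± 0.15 and 0.58 ± 0.16 (adjusted p = 0.0584, 0.279, 0.0567 and 0.0876). The mean signal of Nr1h3 in L629F cells was 168% of wild type with chloride and 146% with iodide. Apoc1 ran the other way, at 82.1% and 76.9%, with a difference of -0.33 ± 0.11 (adjusted p = 0.152). No Abca1 probe set separated the receptors in the same direction under both salts, and its brightest differed by -0.02 ± 0.10. Dim signals were higher in the L629F line as a whole, as given above, and their part in the difference of Abcg1 and Nr1h3 was not tested.

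Further genes of the pathway were taken from 6 lists, chosen with earlier results of these data known and described by counts. For the iodide average, 5 of their 78 tested probe sets (6.41%) were called lower and 0 higher. Over all tested probe sets these shares were 0.644% and 0.209%. Of the other targets of liver X receptors, 9 of 16 genes were tested on 14 probe sets. With iodide 3 of the 14 were called lower and none higher (median -0.39). The change was negative for 13 of 14, against 50.6% of all tested probe sets. Scd, the fatty acid desaturase, went from a mean signal of 1101 to one of 281 in wild type cells and of 1335 to 479 in the L629F line (-1.62 ± 0.16, adjusted p = 0.000757). Srebf1, whose SREBP-1c product drives fatty acid synthesis, changed by -0.82 ± 0.14 on its called probe set (adjusted p = 0.0168). Averaged over the tested probe sets of the gene, its change was -0.68 ± 0.10 (limma adjusted p = 0.00504). Fasn, fatty acid synthase, changed by -0.68 ± 0.12 on 1 probe set (adjusted p = 0.0184). With the GAPDH ratio as a covariate this Fasn probe set lost the call (-0.55, adjusted p = 0.0554). The called Srebf1 probe set kept it (-0.56, adjusted p = 0.0374). The other Fasn probe set changed by -0.68 ± 0.18 and did not pass (adjusted p = 0.105). These are genes of fat synthesis rather than sterol export. Leaving out 1 array kept the call of Scd in 8 of 8 fits, of Fasn in 3 and of Srebf1 in 2 (largest adjusted p 0.145 for both of the latter).

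The partners and cofactors of the receptors did not show this shift, with 11 of 18 genes tested on 20 probe sets, none past the threshold and a median of 0.01. The second liver X receptor gene, Nr1h2, had a change of -0.13 ± 0.10 (adjusted p = 0.662), and the smallest p belonged to Gps2, a corepressor subunit (0.54 ± 0.15, adjusted p = 0.129). Of the enzymes that make or remove oxysterols, 5 of 9 genes were tested on 6 probe sets, with none past the threshold and a median of -0.19. The smallest p there was that of Cyp11a1, which cuts the cholesterol side chain (-0.47 ± 0.27, adjusted p = 0.529). It changed by 0.33 ± 0.38 in wild type and -1.27 ± 0.38 in L629F cells (adjusted p = 0.842 and 0.477). The difference between these changes did not pass either (limma adjusted p = 0.998). Its signals of 31.1 to 187 lay on both sides of the level kept for testing.

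Among receptors that take up lipoproteins, 5 of 9 genes were tested on 12 probe sets. Of these, 10 were negative with a median of -0.33, and 1 was called lower. It was Scarb1, the HDL receptor that exchanges cholesterol in both directions, at -0.67 ± 0.12 (adjusted p = 0.0183), and its other probe set changed by -0.81 ± 0.20 (adjusted p = 0.084). Sorl1, a sorting receptor, and Lrp1, a large endocytic receptor, had changes of -0.51 ± 0.13 and -0.61 ± 0.18 that did not pass (adjusted p = 0.0931 and 0.152). Genes that move and store cholesterol inside the cell had 18 tested probe sets of 10 genes, none past the threshold and a median of -0.07. Of other exporters and apolipoproteins, 7 of 19 genes were tested on 8 probe sets and Clu, clusterin or apolipoprotein J, changed by -0.80 ± 0.12 (adjusted p = 0.00881). The called Scarb1 probe set and Clu each kept the call in 4 of the 8 leave-one-out fits (largest adjusted p 0.135 and 0.0738).

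**Figure D4:**
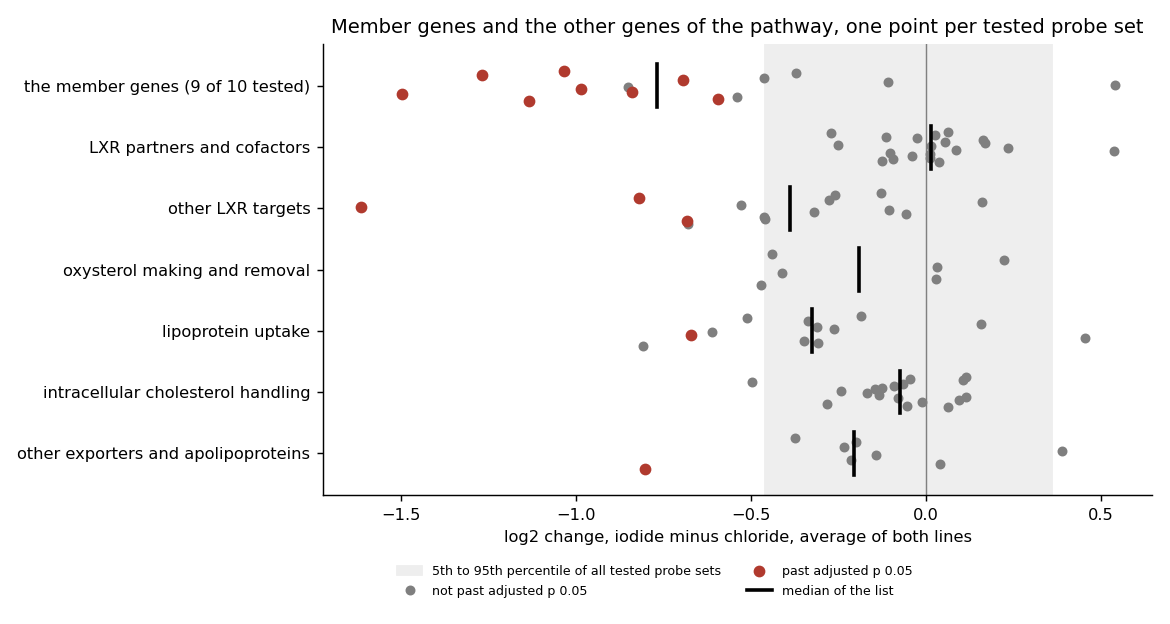
Average log2 change with iodide of every tested probe set of the member genes and of 6 further lists (red past an adjusted p of 0.05, grey not, black line the median). The members have a median of -0.77 and the partners and cofactors of 0.01, and the shaded band holds the 5th to 95th percentile of all 18625 probe sets (-0.46 to 0.36).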

How the data were processed

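Labelled RNA of 8 samples was measured on 1-colour Affymetrix rat arrays. The authors deposited 1 linear intensity for each probe set of an array, from MAS5 (named in the submitters' processing notes). The version of MAS5 is not given in the sources used here. Symbols were those of the platform annotation, updated through Entrez IDs to the GRCr8 gene table (20764 probe sets). Of 31099 probe sets, 20826 had 1 symbol, 436 several and 9780 none, and 57 were controls. Controls and the lowest 40% by mean log2 signal were left out, which kept 18625. Unlike a fit of 1 probe set per gene, every kept probe set entered, since all readings of the members were wanted.

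The fit used log2(signal + 35.3), where 35.3 is the 25th percentile of signals over all arrays, without further scaling. The model, in limma 3.58.1 (R 4.3.3), had 4 group coefficients and eBayes with an intensity trend (4 residual and 8.90 prior degrees of freedom), with two-sided p-values adjusted by Benjamini-Hochberg across the kept probe sets and a threshold of 0.05. The median SE was 0.17 for the average over lines and 0.24 within wild type cells. The number of arrays limits the precision. The fit was tested on simulated data. Named genes are all member probe sets and, of each further list, those past the threshold for the iodide average and up to 4 of smallest p. Members and lists were chosen with earlier results of these data known. Alternatives changed the pseudocount, filter, scaling, feature, variance trend, arrays, replicate term, GAPDH covariate and threshold, and each array was left out once. Plots were made in Python 3.11.15 (matplotlib 3.10.9).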

Additional observations from a re-analysis of the deposited data

Results flagged for a closer look

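Abcg1 1387054_at stood above wild type on both L629F chloride arrays (mean 298% of wild type) and below wild type on both L629F iodide arrays (77.6%), so the receptor difference had opposite signs under the 2 salts. This pattern was taken from non-overlapping arrays; the test of the difference gave -1.54 on the log2 scale (unadjusted p = 0.0336, limma adjusted p = 0.998). On wild type chloride replicate 2 this probe set read 6.61 against 85.2 on the other array, and their mean of 45.9 is under the level kept for testing (69.9). Without that array the difference was -0.78, and the receptor difference with chloride was 0.49 in place of 1.26 (limma adjusted p = 0.868 and 0.307).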

How the results depend on the processing

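The 8 called member probe sets stayed negative for the iodide average under every alternative run, but how many passed moved with the setting. No intensity trend gave 0 members for the average and 0 in wild type cells, with 2 (average), 0 (wild type), 0 (L629F), 26 (receptor average), 2 (receptor, chloride) and 0 (receptor, iodide) of all probe sets. With no filter it was 5 members for the average and 0 in wild type cells, and 56, 20, 169, 6 and 8 of all probe sets for the average, wild type, receptor average, receptor with chloride and receptor with iodide. A threshold of 0.1 gave 6 members in wild type, 1 in L629F and 3 for the receptor average (all probe sets 349 for the average, 94, 12, 780, 97 and 94). The GAPDH covariate gave 2 members in L629F, 2 for the receptor average and 1 for the receptor with iodide (all probe sets 130, 18, 802, 197 and 138 for wild type, L629F, receptor average, chloride and iodide).

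Leaving out the lowest 60% gave 1 member in L629F and 2 for the receptor average (6 of all in L629F, 44 for the receptor with chloride). The brightest probe set per gene gave 1 and 2 (9 of all in L629F, 49 and 51 for the receptor with chloride and iodide), and the mean per gene 1 and 1 (6 of all in L629F). With the mean per gene, where the other tested probe set enters, the Abcg1 change in wild type cells was 0.0314. The brightest Abcg1 probe set alone had -1.25. Centring gave 1 member in wild type and 1 for the receptor average (1348 and 16 of all for the receptor average and with iodide), and split the calls of the iodide average into 77 higher and 97 lower against 39 and 120. Quantile scaling gave 1 and 1 (5 in L629F and 50 for the receptor with chloride). Fitting only the arrays compared gave 1 member in wild type (28, 0, 84 and 5 of all for wild type, L629F, receptor with chloride and iodide). The pseudocount at the 10th percentile gave 18 of all for the receptor with chloride; at the 50th it gave 57, and 1 member in wild type. The cause of these moves was not tested.

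Without 1 array, the members past the threshold were 2 to 8 for the average, 0 to 1 in wild type, 0 in L629F, 0 to 1 for the receptor average and 0 for the other receptor comparisons and the interaction. All probe sets past it were 26 to 288, 0 to 36, 0 to 4, 60 to 315, 0 to 63 (receptor, chloride) and 2 to 16 (receptor, iodide), and the Abcg1 ratio changed by -2.04 to -1.31. Replicate numbers are shared by the groups, but deviations of same-numbered arrays correlated at only 0.04 to 0.209 and no label ties them, so they are not read as pairs. With a replicate block 11 members passed for the average, 8 in wild type, 2 in L629F and 3 for the receptor average, and 534, 217, 28, 990, 202 and 159 of all probe sets (average, wild type, L629F, receptor average, chloride, iodide). Permuting signs of same-numbered pairs gave p = 0.125 for the Abcg1 ratio (exact), the smallest p that this permutation allows.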

Other observations

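None of the named genes around the apolipoprotein cluster passed the threshold for the iodide average, and no difference from Apoc1 or Apoc2 was tested. On the Apoc2 side, Clptm1, a membrane protein, changed by 0.07 ± 0.14 with iodide and Relb, an NF-kappaB subunit, by 0.33 ± 0.20 (limma adjusted p = 0.887 and 0.562). On the Apoe side, Tomm40, the mitochondrial import channel, changed by 0.02 ± 0.14 (adjusted p = 0.979), and the 2 probe sets of the adhesion gene Nectin2 by -0.37 and 0.08 (adjusted p = 0.258 and 0.881). Bcam, a laminin-binding adhesion molecule, had -0.48 ± 0.12 (adjusted p = 0.0986), near the -0.59 ± 0.11 of Apoc1. These neighbours were looked at after the values of the cluster were known.

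Between the receptor lines, 2 of 78 tested probe sets of the further lists (2.56%) passed for the average over both salts, against 1.76% of all tested probe sets. This comparison was added after the data had been seen. Lrp8, the APOER2 receptor that Mylip degrades, was higher in L629F cells by 0.77 ± 0.15 (adjusted p = 0.0257) on 1 probe set, and Tgm2, a transglutaminase, by 0.57 ± 0.10 (adjusted p = 0.0173). The calls held in 1 and 4 of the 8 leave-one-out fits (largest adjusted p 0.121 and 0.103).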
